A study of Mus musculus with 4 samples.

Results

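Among monocytes and macrophages sorted from the mouse colon, a small group of cell barcodes carried transcripts of Folr2 and Cbr2, genes that mark resident macrophages. They were chosen by a score from measured values. Each barcode (the tag of 1 droplet) with at least 1000 unique molecular identifiers (UMIs, counted molecules), at least 317 genes, at most 7% mitochondrial UMIs and under 20% immunoglobulin UMIs received the sum of ln(1 + UMIs per 10000) over Folr2, Cbr2, Gas6 and Pmp22. The top 6% over all mice made up the group, which held 273 of 4543 kept barcodes and of 6954 in the table. They are called Folr2+ Cbr2+ barcodes here, although 50 of them had no UMI of either gene and entered through Gas6 or Pmp22.

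The study asked how diesel exhaust particles (DEP) that reach the gut act on intestinal macrophages. Male C57/Bl6N mice had been gavaged with 12 µg DEP in 200 µL phosphate-buffered saline (PBS), or with PBS alone, on 5 days a week over about 6 months. Lamina propria cells that were CD11b+ and also Ly6c2+ or Cd64+ were sorted and each animal filled 1 well of a 10x Genomics 3' v2 run. Mice DEP 11 and DEP 13 had received particles and mice PBS 2 and PBS 3 the vehicle, and all were sorted in 1 batch. No source used here gives their age.

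Resident gut macrophages lie in several niches. Those next to the epithelium sample the lumen and present antigen, while those around blood vessels, nerves and muscle take up debris, clear dying cells and secrete trophic factors. Folr2 encodes the folate receptor beta, Cbr2 a carbonyl reductase, Pmp22 a membrane protein first known from myelin, and Gas6 the ligand that bridges phosphatidylserine on dying cells to the receptors Axl, Mertk and Tyro3. Lyve1 (a hyaluronan receptor) and Cd163 (the receptor for hemoglobin bound to haptoglobin) are used as markers of macrophages near vessels in many tissues.

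Mouse DEP 11 gave 76 members among 1167 kept barcodes, DEP 13 gave 52 among 635, PBS 2 gave 82 among 1236 and PBS 3 gave 63 among 1505. Their median depth was 5846 UMIs, between that of the C1q-high barcodes (7569.5) and that of the C1q-low barcodes (4841). These classes are the upper and lower 50% of the other kept barcodes by the score of C1qa, C1qb and C1qc, complement genes that gut macrophages express as they mature. The 155 barcodes with 3 or more lymphocyte UMIs were set apart. Both classes are ranges of a score and not cell types. Summed over the members, each mouse gave 320516 to 673577 UMIs. DEP 13 was the shallowest, and its values are the least precise.

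All 6 marker genes were higher in the members than in the other classes in each of the 4 mice. Levels are given as CPM, the UMIs of a gene per 1000000 UMIs summed over a class in 1 mouse. Folr2 (mm10 chromosome 7, 101839988 to 101857194) was at 338 and 275 CPM in members of DEP 11 and DEP 13 and at 238 and 326 CPM in those of PBS 2 and PBS 3, and at 9.37 to 12.7 CPM in the C1q-high barcodes. For Cbr2 (chromosome 11, 120729489 to 120732114) the members had 109, 93.6, 126 and 120 CPM in the same order, and the C1q-high barcodes 1.66 to 6.73. The values of the 4 score genes restate the selection and carry no test. Pf4 and Ccl8, chemokine genes outside the score, were described the same way because the same barcodes were chosen with correlated genes in view. Pf4 was at 3420, 2849, 2387 and 3461 CPM in the members and at 800 to 979 CPM in the C1q-high barcodes. Ccl8 was at 2014, 2842, 723 and 2056 CPM in the members, with PBS 2 far below the other mice, and at 323 to 640 CPM in the C1q-high barcodes.

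**Figure D1:**
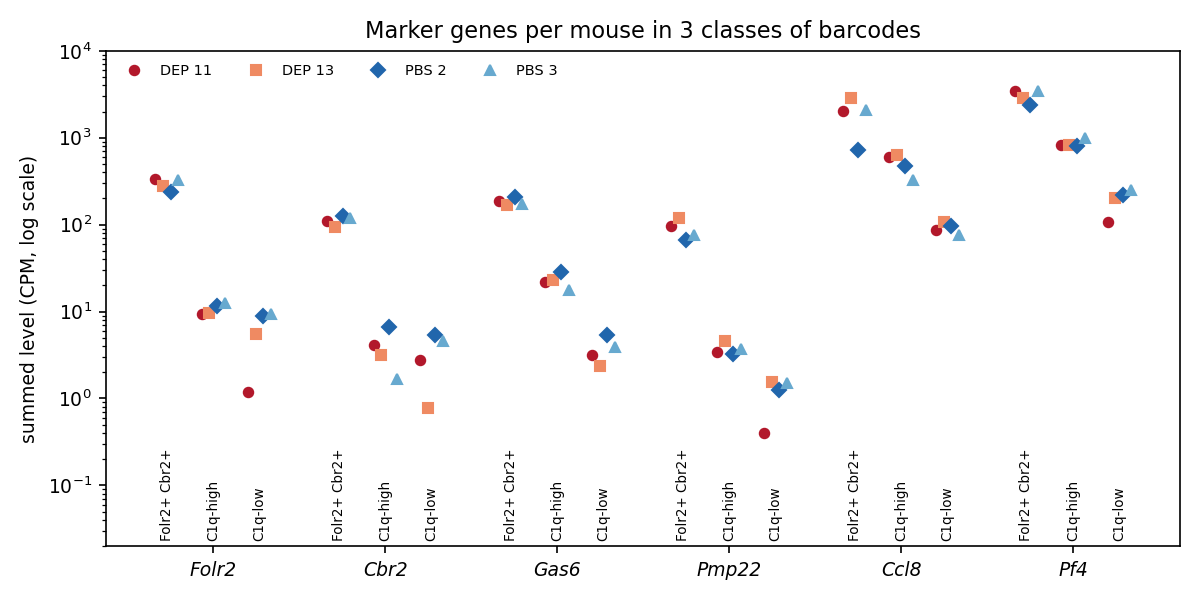
Summed level (CPM, log scale) of the 6 marker genes in each mouse (1 symbol per mouse) in Folr2+ Cbr2+, C1q-high and C1q-low barcodes. The 4 score genes were used for the selection, so their gap to the other classes is a description. Pf4 and Ccl8 also lay highest in the Folr2+ Cbr2+ barcodes of every mouse.

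The detection of Folr2 is given at equal depth as a description, since its UMIs chose the members. After thinning each kept barcode to 1000 UMIs, a Folr2 UMI was found in 22.0% of members, 0.777% of C1q-high barcodes and 0 of the 80 immunoglobulin-rich barcodes, a count that allows a share of up to 3.75% and covers counting error only. Before thinning the shares were 67.4% (median 5846 UMIs), 7.39% (7569.5 UMIs) and 18.8% (20942 UMIs), the last in plasma-cell-type droplets that should lack the gene. Ccr2, a receptor of recruited monocytes, was found in 22.0% of thinned members, 24.9% of C1q-high barcodes, 50.9% of C1q-low barcodes and 21.3% of the immunoglobulin-rich barcodes. The members' share was thus close to that of cells expected to lack it, and no expression of Ccr2 is read from it.

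The selection was sharp for some barcodes and marginal for others. Of the members, 64 had UMIs of 1 score gene, 136 of 2, 62 of 3 and 11 of all 4. Folr2 with Gas6 was the most frequent combination (66 members), and Folr2 and Cbr2 occurred together in 68. The last member had 2 Gas6 UMIs in 5254, the first barcode outside had 1 Gas6 UMI in 2627, and both scored 1.57. The median score of members was 2.37, and 24 members and 31 other barcodes lay within 0.1 of the limit. With the score taken after thinning to 1000 UMIs, 139 of the 273 members kept a score gene UMI and 134 had none left. Since 253 kept barcodes then scored above 0, the top 6% took in 20 barcodes at 0, 2 of them among the 141 members chosen again. The 64 members with 1 score gene had a median of 2711.5 UMIs, so a single UMI carries more weight in shallow barcodes.

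The barcodes were macrophages by their other genes. C1qa was at 6492, 5978, 6693 and 5433 CPM in DEP 11, DEP 13, PBS 2 and PBS 3 and at 5529 to 6718 in the C1q-high barcodes, and 241 of the 273 members lay in the C1q-high range. Adgre1 (F4/80), a general mouse macrophage gene, was at 527 to 564 CPM in members against 483 to 503. Some genes of the Lyve1-type resident list were absent or low in the members. Marco had no UMI, Timd4 was at 4.63 CPM in DEP 11 and at 0 in the other mice, and Vsig4 was at 2.32 to 8.22 CPM. The markers of other cell types differed in level. The 6 neutrophil markers summed to 27.4 to 43.7 CPM with S100a8, S100a9 and Ly6g at 0, the 8 dendritic cell markers to 10.95 to 35.6 with Zbtb46, Clec9a and Itgae at 0, the 8 glia and nerve markers to at most 2.74 with 7 of 8 at 0, and the 7 endothelium markers to 19.2 to 32.4 with Plvap, Cldn5 and Tie1 at 0. T cell markers (7 genes, none at 0) summed to 16.3 to 82.1 CPM, and 15 members had 3 or more lymphocyte UMIs. Fibroblast and muscle markers (10 genes, Myh11 and Des at 0) summed to 76.4, 12.5, 285 and 30.1 CPM against 8.85 to 16.7 in C1q-high barcodes. Of 228 member UMIs of Col1a1, Col1a2, Col3a1, Dcn and Lum, 209 lay in 2 members, 1 of DEP 11 and 1 of PBS 2. B and plasma cell markers (8 genes, none at 0) summed to 3899, 6592, 3125 and 9039 CPM in members and to 3945, 6749, 3054 and 8949 CPM in C1q-high barcodes, nearly the same in both classes of a mouse. The doublet caller marked 3 members (1.10%) and 61 of all kept barcodes (1.34%), 29 of them in DEP 13.

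Few genes differed from the other C1q-high barcodes by 2 fold in every mouse. Of 5272 genes with a UMI in at least 10% of either class, 19 (0.36%) were at least 2 fold higher in the members in 4 of 4 mice and 2 (0.0379%) at least 2 fold lower, with 10 CPM added to both values. Beside the 4 score genes, the 19 were F13a1, Fcna, Cd163, Serpinb6a, Retnla, Cd36, Igf1, Pf4, Wwp1, C4b, Fcrls, Stab1, Igfbp4, Ccl2 and Mrc1. Of the 5272 genes, 229 entered only through the members, where they were detected more often, among them Folr2, Cbr2, Pmp22, Fcna, Cd163, Retnla and C4b. With the top 10% of barcodes 12 genes were higher (the score genes, Cd36, F13a1, Fcrls, Igf1, Pf4, Serpinb6a, Stab1 and Wwp1) and with the thinned score 6 (the score genes, F13a1 and Fcna), and none was lower in either. This contrast is the one the rule used, so the counts are given without a test. The median log2 ratio over the 5272 genes was 0.090, and 22.7% of them were higher and 8.97% lower in 4 of 4 mice.

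Of the genes called higher, Cd163, Stab1, Mrc1 and Cd36 encode uptake receptors, and no test was made of this grouping. Cd163 was at 18.5, 40.6, 40.1 and 41.1 CPM in members of DEP 11, DEP 13, PBS 2 and PBS 3 and at 0.832 to 2.34 CPM in C1q-high barcodes. Stab1, a scavenger receptor, was at 273, 250, 241 and 233 CPM against 85.1 to 97.1, and Mrc1, the mannose receptor, at 394, 524, 379 and 493 CPM against 169 to 209. Cd36, which binds oxidised lipids and dying cells, was at 104, 106, 81.7 and 148 CPM against 18.2 to 24.4. These genes are named because they were called in this contrast, so their separate ranges largely follow from that choice. Cd163 also entered only through the members. Fcna, a secreted lectin of the complement system, was at 50.9, 34.3, 57.9 and 63.0 CPM against 2.50 to 5.43. F13a1, the A chain of clotting factor XIII, was at 167, 150, 183 and 271 CPM against 19.9 to 49.3. It was also at 184 to 244 CPM in the C1q-low barcodes and so did not set the members apart from those. Lyve1 was found in too few barcodes to enter the count and was at 13.9, 9.36, 41.6 and 71.2 CPM against 0.416 to 0.909. Among the 26 listed genes of Lyve1-type resident macrophages, 16 entered, Cd163 and Fcna only through the members. Of the other 14, 5 were called higher and 13 were higher in 4 of 4 mice, where 0.36% and 22.7% of all 5272 genes were. The median log2 ratio of these 14 was 1.08.

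Among secreted factors the genes differed. Igf1, a growth factor for epithelium and nerve, was at 111, 122, 83.1 and 107 CPM against 15.6 to 31.0 CPM in C1q-high barcodes. The monocyte attractant Ccl2 was at 299, 668, 790 and 712 CPM against 124 to 312. Of 21 listed chemokines, 16 entered, Ccl24 only through the members. Of the other 15, Pf4 and Ccl2 were called higher, 8 were higher in 4 of 4 mice and 4 were lower, with a median log2 ratio of 0.23. Of all 5272 genes, 22.7% were higher and 8.97% lower in 4 of 4 mice. Ccl7 was at 627, 605, 866 and 583 CPM against 142 to 341, whereas Cxcl16 was at 485 to 690 CPM against 752 to 923 and Ccl3 at 412 to 670 against 705 to 962. Cxcl13 had 145 UMIs in members, of which 66.9% came from 1 barcode. Of 18 listed growth and vessel factors, 8 entered, Igf1 was called, 6 were higher in 4 of 4 mice and none lower.

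Of 20 listed genes for the clearance of dying cells, Gas6 had been used for the selection. Of the other 19, 13 entered (Mertk only through the members), and Stab1 and Cd36 were called higher. In 4 of 4 mice 6 were higher and 1 lower, where 22.7% and 8.97% of all 5272 genes were. The receptors of Gas6 differed from each other. Mertk was at 23.2, 49.9, 17.8 and 35.6 CPM in members against 10.5 to 15.6, Axl at 109 to 119 CPM against 138 to 176, and Tyro3 at 0 in all. Of 15 complement genes 11 entered, C4b and C5ar2 only through the members, and none of the other 9 was called. C4b was at 16.2, 31.2, 35.6 and 24.6 CPM against 0.520 to 3.62. Of 14 heme and iron genes 10 entered, Cd163 and Cp only through the members, and none of the other 8 was called. Hmox1, which degrades heme, was at 134 to 340 CPM in members and 124 to 346 CPM in C1q-high barcodes.

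Of 10 MHC class II genes, all entered, none reached 2 fold and 9 were lower in 4 of 4 mice, with a median log2 ratio of -0.41. Of all 5272 genes, 22.7% were higher and 8.97% lower in 4 of 4 mice. Cd74, the invariant chain, was at 41248, 43886, 37567 and 33926 CPM in members against 52115 to 58916 CPM in C1q-high barcodes. The 2 genes called lower were Ocstamp, needed for osteoclast fusion, at 13.9, 9.36, 17.8 and 10.95 CPM against 32.3 to 64.5, and Klrb1b, a lectin-like receptor, at 23.2, 43.7, 26.7 and 21.9 CPM against 61.2 to 98.2. Of 21 listed mature mucosal macrophage genes, none was called, 4 were higher and 8 lower in 4 of 4 mice. H2-M2 was at 62.4 to 225 CPM in members against 184 to 510, Mmp12 at 16.4 to 62.4 against 87.7 to 119, and Vcam1 at 181 to 374 against 95.3 to 158. Of 19 monocyte genes, 17 entered and none was called. In 4 of 4 mice 7 were higher and 3 lower, where 22.7% and 8.97% of all genes were. S100a4 and S100a6 were among the higher ones (90.5 to 171 CPM against 50.7 to 81.4, and 546 to 898 against 306 to 386). Ccr2, of which no expression is read, was among the lower ones (119 to 278 CPM against 244 to 311).

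**Figure D2:**
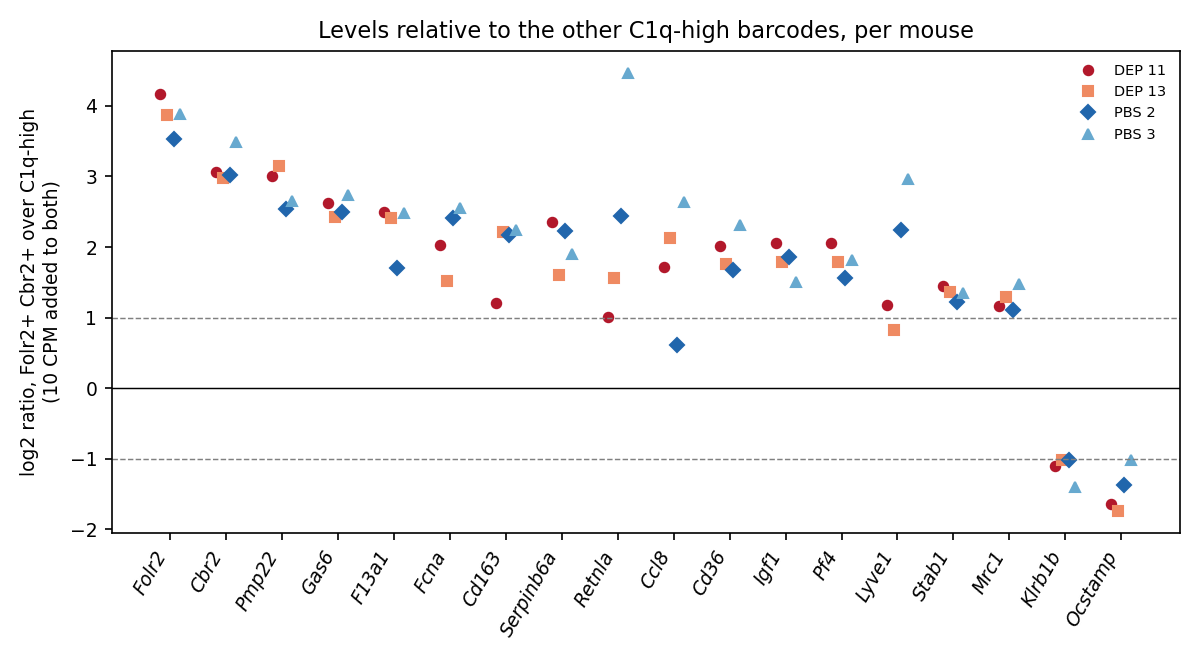
Log2 ratio of the level in Folr2+ Cbr2+ barcodes over that in other C1q-high barcodes, 1 symbol per mouse, with 10 CPM added to both values; dashed lines mark 2 fold. The score genes are on the left by selection. Retnla and Lyve1 were spread most, with PBS 3 at 4.47 and 2.96 and the DEP mice at 0.83 to 1.57.

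Within the members, levels were compared by score, which is the selection score itself, and the plot of pooled levels by score is a description. The members were divided by score into 3 groups of 91. From the lowest to the highest group, Cd163 was at 6.00, 10.95 and 107 CPM, Lyve1 at 6.00, 26.6 and 86.5, Fcna at 16.5, 20.3 and 146, and Stab1 at 138, 207 and 455. Pf4 was at 2203, 2491 and 4533 CPM. C1qa moved little, from 5744 to 6966 CPM, while Cd74 was at 43113, 42345 and 28378 and H2-M2 at 146, 167 and 28.8 CPM. The fibroblast gene Dcn, whose member UMIs lay mostly in 1 barcode (75.4%), was at 7.50, 31.3 and 191 CPM over the same groups, and its part in the other values was not tested. The highest group had the lowest median depth (4651 UMIs against 5823 and 6526). At 1000 UMIs a Cd163 UMI was found in 10.99% of the highest group, none of the middle and 1.10% of the lowest, and an Mrc1 UMI in 51.6%, 30.8% and 25.3%.

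**Figure D3:**
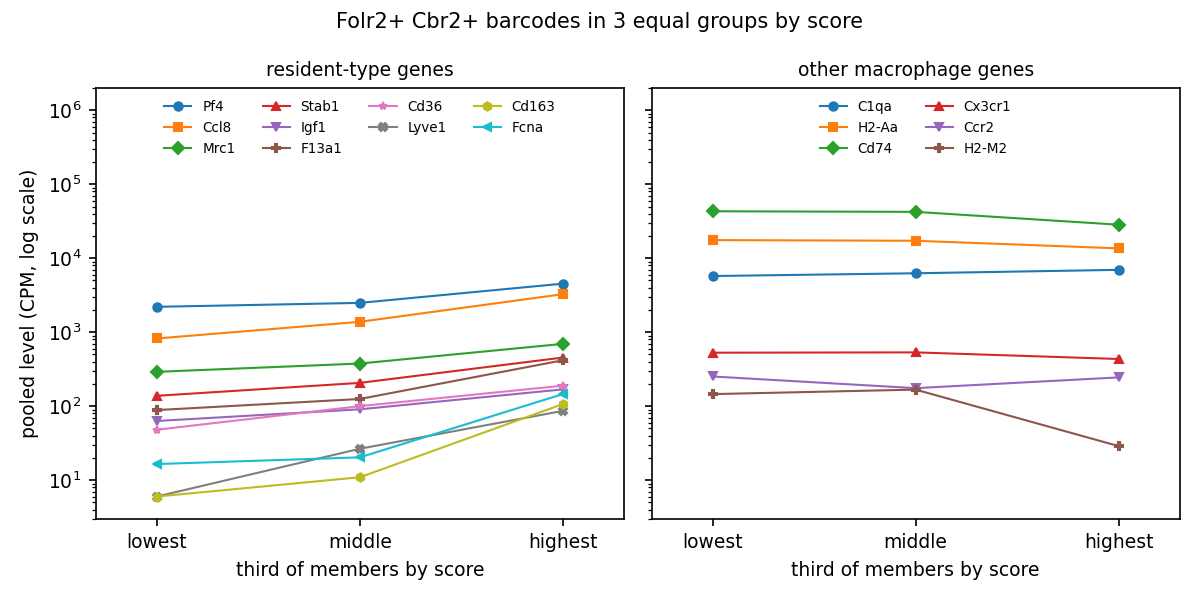
Pooled level (CPM, log scale) of resident-type genes (left) and other macrophage genes (right) in the members divided into 3 groups of 91 by score. Cd163, Lyve1 and Fcna were highest in the top group, Cd74 and H2-M2 lowest there, and C1qa nearly level. The groups pool 4 mice and show no error.

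A part of the group carried Lyve1 or Cd163. At least 1 UMI of either was found in 47 members, 7 and 8 in the DEP mice and 16 in each PBS mouse, or 9.21%, 15.4%, 19.5% and 25.4% of the members. In the C1q-high barcodes these shares were 0.917% to 1.55%. The lower shares were those of both DEP mice, where members were shallower (median 5071.5 and 5712.5 UMIs) than in PBS 2 (6993) but not all shallower than in PBS 3 (5499). At 1000 UMIs the shares were 5.26%, 1.92%, 9.76% and 11.1%, from 4, 1, 8 and 7 members. For Cd163 alone they were 3.95%, 1.92%, 7.32% and 1.59%, with PBS 3 the lowest. This split was made after the values were seen and is given without a test. Compared with the other 226 members, the 47 had more Folr2 (678 against 219 CPM), Cbr2 (314 against 80.5) and Fcna (201 against 27.5), and their median depth was lower (5053 against 6122.5 UMIs). The members with Lyve1 or Cd163 also held most Retnla. Of 453 Retnla UMIs, 343 lay in 15 of them.

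Correlations within the members were weak. Over the 273 members, Spearman's rho of UMIs per 10000 was 0.43 for Pf4 with Mrc1, 0.38 for Pf4 with Stab1, 0.34 for Pf4 with Ccl8 and -0.33 for Ccl8 with Ccr2. Folr2 with Cbr2 gave 0.0089, in barcodes that were chosen for the sum of both. These values describe barcodes that share 4 libraries and differ in depth.

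The share of these barcodes was not distinguishable between DEP and PBS mice. DEP 11 had 6.51% (5.17 to 8.08%, exact 95% limits from the binomial distribution), DEP 13 had 8.19% (6.18 to 10.6%), PBS 2 had 6.63% (5.31 to 8.17%) and PBS 3 had 4.19% (3.23 to 5.32%). PBS 2 lay above DEP 11, so the groups overlapped. They did not overlap with the top 4% (4.46% and 5.83% in DEP mice against 4.13% and 2.79%), nor as a share of members plus C1q-high barcodes (12.5% and 15.1% against 12.4% and 8.79%, a difference of 3.22 points), each with an exact permutation p of 0.333. The means were 7.35% ± 1.19 with DEP and 5.41% ± 1.73 with PBS (SD, n = 2 each), a difference of 1.94 percentage points (exact two-sided permutation p = 0.667, where the smallest p of 2 against 2 mice is 0.333). With the score taken after thinning the difference turned to -0.44 points, and to -0.057 points without the 20 barcodes at score 0. Without DEP 11, DEP 13, PBS 2 and PBS 3 in turn it was 2.78, 1.10, 3.16 and 0.72 points. The sort can set these shares.

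**Figure D4:**
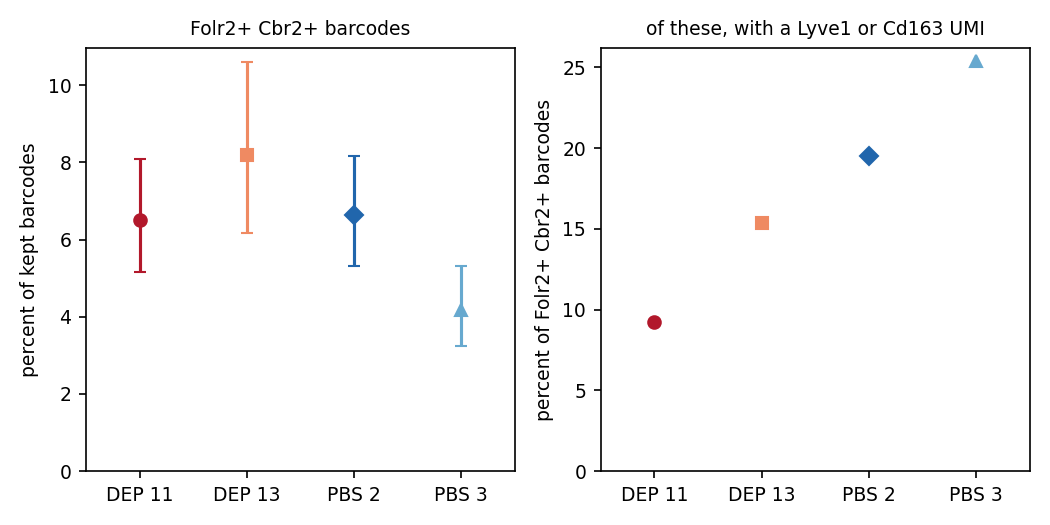
Left, Folr2+ Cbr2+ barcodes as percent of kept barcodes per mouse, with 95% exact binomial intervals (counting error only). Right, percent of them with a Lyve1 or Cd163 UMI. On the left PBS 2 (6.63%) lies above DEP 11 (6.51%), while on the right both DEP mice lie below both PBS mice at unequal depth (at 1000 UMIs 5.26% and 1.92% against 9.76% and 11.1%).

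Between DEP and PBS mice, 3 of 7056 tested genes (0.0425%) passed a false discovery rate (FDR) of 5% in the summed members (edgeR quasi-likelihood test), and 325 (4.61%) had an unadjusted p under 0.05. Retnla and Ier2 fell and H2-M2 rose. DESeq2 called 2 genes, limma voom 7 and the edgeR likelihood ratio test 11. The edgeR p-values rest on 2 mice per group, with the variance of each gene moderated toward a trend over all tested genes. They therefore do not measure the spread of that gene between the mice alone.

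Retnla, which encodes a secreted protein of alternatively activated macrophages, showed the largest change among the 3. The gene (chromosome 16, 48842551 to 48844461) had 29 UMIs in DEP 11 and 14 in DEP 13 against 193 in PBS 2 and 217 in PBS 3, or 67.1, 43.7, 287 and 594 CPM. Both DEP mice lay below both PBS mice, at a log2 fold change of -2.93 (SE 0.36, adjusted p = 0.00103, edgeR), which is 7.59 fold. Few members carried it. A UMI was found in 3, 2, 10 and 18 of them (3.95%, 3.85%, 12.2% and 28.6%), and the member with the most, in PBS 3, held 20.97% of all UMIs. In members with a Lyve1 or Cd163 UMI the levels were 597, 389, 998 and 2489 CPM, which rest on 1 barcode in each DEP mouse and on 6 and 7 barcodes in the PBS mice, and in the other members 5.17, 3.48, 153 and 69.9. The gene stayed under an FDR of 5% in each of the 21 other settings, at log2 fold changes of -4.32 to -2.26. In the C1q-high barcodes it was at 28.4, 8.14, 44.7 and 17.3 CPM, where DEP 11 lay above PBS 3, and in the C1q-low barcodes at 12.0 and 21.04 CPM in DEP mice against 32.5 and 92.3.

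Ier2, an immediate early gene that is induced by growth signals and by tissue handling, was at 213 and 187 CPM in the DEP mice and at 646 and 512 CPM in the PBS mice (chromosome 8, 84661331 to 84662852). UMIs were found in 190 members, so the difference did not rest on a few barcodes. It fell by 1.505 on the log2 scale (SE 0.22, adjusted p = 0.00731, edgeR). Without DEP 11 the adjusted p was 0.108 and without DEP 13 it was 0.0685, at log2 fold changes of -1.58 and -1.45. Also in the C1q-high barcodes both DEP mice (238 and 187 CPM) lay below both PBS mice (445 and 287 CPM).

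H2-M2, a nonclassical MHC class I gene found in mature colon macrophages, was at 181 and 225 CPM in the DEP mice against 62.4 and 71.2 CPM in the PBS mice (chromosome 17, 37480851 to 37483552). The log2 fold change was 1.64 (SE 0.27, adjusted p = 0.0247, edgeR). UMIs were found in 19, 12, 15 and 14 members (25%, 23.1%, 18.3% and 22.2%), so detection hardly differed. In DEP 13, 1 barcode held 41 of the 72 UMIs, and without it the level there was 99.9 CPM. Without DEP 13 the log2 fold change was 1.44 (adjusted p = 0.136), and DESeq2 gave an adjusted p of 0.132. With members chosen by the thinned score it was 0.99 (adjusted p = 0.236). In the C1q-high barcodes the level was 510 and 364 CPM in DEP mice against 184 and 306 CPM.

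Of the dissociation stress genes, which are induced when tissue is digested, all 19 listed were tested. Ier2 was called, 8 had an unadjusted p under 0.05 and a lower level in DEP mice, and none had a higher one. Both DEP mice lay below both PBS mice in 11 and above in none, where 17.4% and 15.5% of all tested genes did so, and the groups overlapped in the other 8. The median log2 fold change was -0.27, against 0.0014 over all tested genes. Jun, part of the AP-1 transcription factor, was at 729, 568, 1428 and 1287 CPM (log2 fold change -1.04, SE 0.20, adjusted p = 0.0719, edgeR) and was called in 11 of the 21 other settings. Hspb1, a small heat shock protein, was at 11.6, 21.8, 54.9 and 200 CPM (adjusted p = 0.142), and was called in 9. Summed over the list the members had 11034 and 9263 CPM in DEP mice against 14390 and 13729, and the C1q-high barcodes 12388 and 10484 against 15242 and 13594. The median mitochondrial share of members was 2.31% and 2.32% in DEP mice against 1.79% and 1.98%. The part of handling in the other differences was not tested.

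Among the mature mucosal and monocyte genes H2-M2 was called. Of the 21 mature mucosal genes tested, both DEP mice lay above both PBS mice in 11 and below in none, and the other 10 overlapped. An unadjusted p under 0.05 was found in 8, and the median log2 fold change was 0.46. Over all tested genes 15.5% lay above, 17.4% below and 4.61% had such a p, with a median of 0.0014. The lists were chosen with earlier results of these data known. Cd9, a tetraspanin, was at 294 and 399 CPM in DEP mice against 186 and 148 (log2 fold change 1.07, SE 0.24, adjusted p = 0.199, edgeR) and was called in 4 other settings. Vcam1, an adhesion molecule, was at 285 and 374 CPM against 181 and 194 (log2 fold change 0.84, adjusted p = 0.686) and was called in 1. Of 17 monocyte genes tested, none was called, both DEP mice lay below both PBS mice in 8 and above in none, the other 9 overlapped, and the median log2 fold change was -0.42. Ccr2 was at 171 and 119 CPM in DEP mice against 278 and 274 (log2 fold change -0.89, SE 0.24, adjusted p = 0.585), in members whose Ccr2 share at equal depth was close to that of the immunoglobulin-rich barcodes. Fn1, fibronectin, was at 13.9 and 9.36 CPM against 35.6 and 65.7 (adjusted p = 0.525), and was called in 3 other settings.

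None of the 17 tested Lyve1-type genes was called. In these, both DEP mice lay above both PBS mice in 4 and below in 4, where 15.5% and 17.4% of all tested genes did so. The median log2 fold change of the 17 was 0.027. Lyve1 had 6, 3, 28 and 26 UMIs (log2 fold change -2.13, SE 0.51, adjusted p = 0.276, edgeR) and was called in 5 of the 21 other settings, whereas Clec4n, the lectin receptor Dectin-2, was at 704, 927, 441 and 548 CPM (log2 fold change 0.75, SE 0.22, adjusted p = 0.855) and was called in 1. Of 16 chemokines, none was called and 5 had a lower level at an unadjusted p under 0.05 (Ccl2, Ccl6, Ccl9, Ccl24 and Cxcl10), while Ccl8 had a higher one and was called in 3 other settings. Ccl24, an eosinophil attractant, was at 23.2, 15.6, 38.6 and 68.5 CPM (adjusted p = 0.976). None of 18 interferon genes, 17 inflammatory and inflammasome genes, 14 uptake genes beside Gas6, 11 complement genes, 11 heme and iron genes, 10 MHC class II genes and 9 growth factors was called. Of all tested genes, 0.0425% were called and 4.61% had an unadjusted p under 0.05. The lack of a call in lists of this size thus says little about them. Il1b was at 2417, 1928, 2735 and 1531 CPM and Nlrp3 at 27.8, 43.7, 50.5 and 19.2 CPM, with DEP and PBS mice overlapping. Hmox1 was at 134 and 153 CPM in DEP mice against 230 and 340 (adjusted p = 0.611), and was called in 2 other settings.

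**Figure D5:**
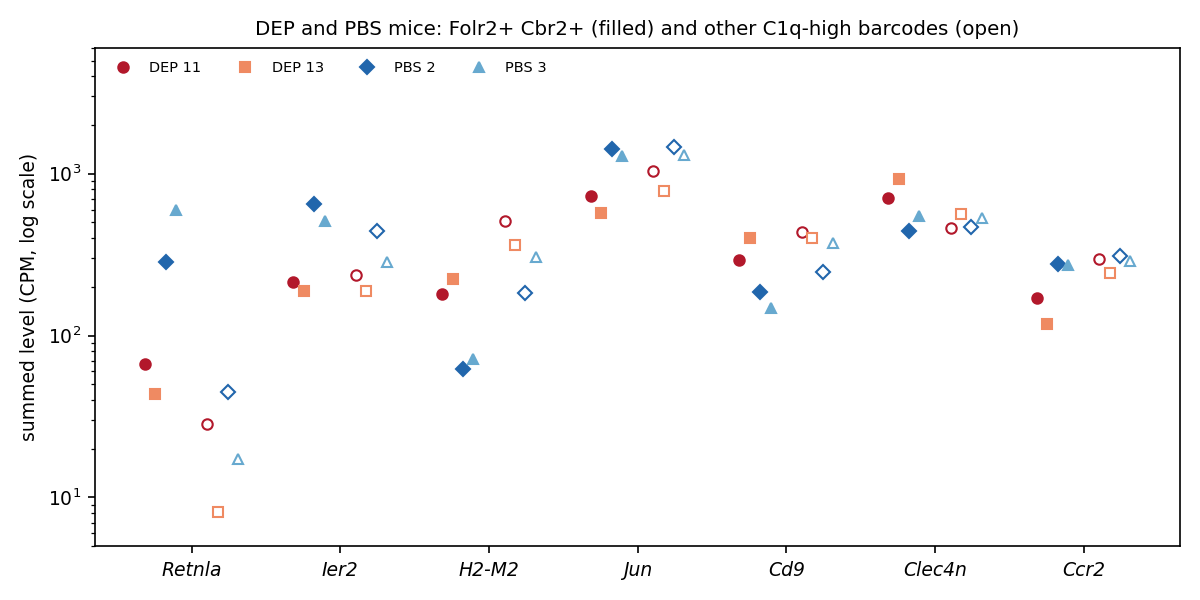
Level (CPM, log scale) of 7 genes in each mouse in Folr2+ Cbr2+ barcodes (filled) and other C1q-high barcodes (open). Retnla, Ier2 and H2-M2 passed an FDR of 5% in the Folr2+ Cbr2+ barcodes; Jun, Cd9, Clec4n and Ccr2 did not. In the filled symbols the ranges of DEP and PBS mice were separate for all 7 genes, as they were for 15.5% (DEP above) and 17.4% (DEP below) of all tested genes.

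Whether the DEP effect differed between these barcodes and the other C1q-high barcodes was tested as an interaction over 8 sums, with a term for each mouse. Of 7504 genes, 18 (0.24%) passed an FDR of 5% with the edgeR quasi-likelihood test, 6 with a higher and 12 with a lower effect in the members. DESeq2 called 0, with 42 genes at an unadjusted p under 0.05 where edgeR had 418. Retnla was among the lower ones, with an interaction log2 fold change of -2.16 (SE 0.30, adjusted p = 2.11e-09, edgeR). Clec4n was among the higher ones at 0.71 (SE 0.14, adjusted p = 0.000642), with UMIs in 209 members and 462, 562, 467 and 534 CPM in the C1q-high barcodes. Both lost the call with single mice left out. Retnla was at -1.32 (adjusted p = 0.751) without DEP 11 and -1.12 (adjusted p = 0.781) without PBS 3, and Clec4n at 0.63 (adjusted p = 0.175) without DEP 13, 0.63 (adjusted p = 0.975) without PBS 2 and 0.77 (adjusted p = 0.113) without PBS 3. With members chosen by the thinned score Clec4n was at 0.20 and not called. The number of genes called was 5 without DEP 11, 10 without DEP 13, 1 without PBS 2 and 5 without PBS 3.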

How the data were processed

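Single-cell RNA sequencing was done on sorted colon monocytes and macrophages of 4 mice. The authors deposited raw whole-number UMI counts for each gene and barcode. Made with Cell Ranger, they rest on the mm10 build, and STAR 2.6.1a and R 3.5.1 also stand in the submitters' processing notes. The mouse of a barcode was read from its suffix. Of 28692 genes, 28416 received a symbol and 1-based position from GENCODE M21. After the filters, 4543 barcodes were kept, and the study states a far smaller number of analysed cells after similar filters, so its cells may not be those of this table. The members and gene lists were chosen with earlier results of these data known. Barcode names that libraries share numbered 36, none of them leading from a member to another kept barcode.

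UMI counts were summed per mouse and class. Tested were genes over 1 CPM in at least 2 sums that 5% or more of the barcodes detected, with edgeR 4.0.16 (R 4.3.3, TMM, quasi-likelihood F test, 2 residual degrees of freedom, Benjamini-Hochberg adjustment over all tested genes). limma 3.58.1 (voom) and DESeq2 1.42.0 were alternatives. Shares were compared over the 6 assignments of 2 and 2 mice. Intervals are exact binomial (95%). Thinning drew 1000 UMIs per barcode without replacement. Scrublet (in scanpy 1.11.5, expecting 6%) scored doublets in each mouse separately, and they were kept. Total depth was 4489342 to 10293703 UMIs per mouse.

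Named genes were the 6 markers, members of the lists, up to 12 genes per direction with the largest ratio to the C1q-high barcodes among those called in 4 of 4 mice, up to 10 per direction under the FDR for DEP against PBS, and up to 5 per direction for the interaction. Results of the 4 score genes between DEP and PBS are not reported. Other genes called were named after their values were seen. Alternatives were other numbers of members (4%, 10%, or 6% within each mouse), a score after thinning or without Pmp22, 2000 UMIs, other filters and scalings, and leaving out doublets, lymphocyte UMIs or each mouse. Requiring 2 or more score genes and leaving out members with 3 or more fibroblast UMIs, and thinned scores above 0 only, were chosen after seeing the data. The values of 1 listed gene are not reported here.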

Additional observations from a re-analysis of the deposited data

Results flagged for a closer look

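The 18 genes below had a DEP effect in the Folr2+ Cbr2+ barcodes that differed from that in the other C1q-high barcodes (edgeR interaction, FDR of 5%). Values are interaction log2 fold changes, positive where DEP over PBS was higher in the Folr2+ Cbr2+ barcodes. DESeq2 called none of them.

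In 8 of these genes 39.3% to 56.1% of the member UMIs lay in 1 barcode. The histone genes Hist1h2ap (-2.15), Hist1h2ao (-2.21), Hist1h2ai (-2.34) and Hist1h2ac (-1.80), whose near-identical copies make the counts uncertain, had 53.9%, 56.1%, 49.3% and 54.3% of their member UMIs in 1 barcode of PBS 2. Spp1 (2.66), osteopontin, had 2, 40, 15 and 1 UMIs in DEP 11, DEP 13, PBS 2 and PBS 3, with 29 of them in 1 barcode of DEP 13. Mt2 (2.12), a metallothionein, had 72, 7, 31 and 14, with 40.3% in 1 barcode of DEP 11. Without the mouse of that barcode the value was 0.077 for Hist1h2ap, -0.19 for Hist1h2ao, 1.16 for Hist1h2ai, -0.53 for Spp1 and -0.57 for Mt2, none of them called. Adamdec1 (-1.93) had 40.7% in 1 barcode of PBS 2 and Lgals4 (2.83), an epithelial gene, 39.3% of 16, 8, 3 and 1 UMIs in 1 barcode of DEP 11. The epithelium markers of the members, Lgals4 included, summed to 137, 53.0, 16.3 and 46.5 CPM with Cdh1 and Muc2 at 0, those of the C1q-high barcodes to 22.1, 74.7, 28.0 and 158 CPM, and their part in the value was not tested.

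Among the others the highest share of member UMIs in 1 barcode was 20.97% (Retnla), followed by 18.7% for Stmn1 and 17.9% for Id3. Clec4n (0.71), Klf2 (0.96), a transcription factor, Ier2 (-0.74), Neat1 (-0.75), a nuclear long noncoding RNA, and Ccr2 (-0.74) had UMIs in 121 to 209 members. Stmn1 (-1.34), a microtubule regulator of dividing cells, and Id3 (-1.23) had them in 45 and 61. Mmp12 (1.66), macrophage elastase, had 21, 20, 14 and 6 UMIs, and Ehmt1 (-3.27) had 1, 1, 21 and 10. Retnla (-2.16) is described above. With called doublets left out it was at -0.75 (adjusted p = 0.920). Stmn1 was at -1.01 (adjusted p = 0.844) without DEP 11 and -0.68 (adjusted p = 0.992) without PBS 2. With any one of the 4 mice left out Klf2 and Mmp12 were not called, at values of 0.83 to 1.07 and 1.46 to 2.02.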

How the results depend on the processing

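No paired analysis was possible because the labels give DEP and PBS mice no shared replicate numbers. With 1 mouse left out, the lone mouse of its group is assumed to vary like the others. Depth limits genes with few UMIs per mouse. No kept barcode had 0% mitochondrial UMIs, so the setting that leaves such barcodes out repeats the main values in every count of settings.

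The share difference of 1.94 points kept its direction in 14 of 16 settings. It turned to -0.436 points with the score after thinning, and to -0.0574 points with thinned scores above 0 only (0.716 to 3.16 points over single mice left out).

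Against 3 genes changed by DEP, 7 were called with at least 2000 UMIs, 11 by the likelihood ratio test, 7 by limma voom, 19 with members with lymphocyte UMIs left out, 39 with no gene filter, 12 without Pmp22, 7 with the top 4%, 20 with the top 6% of each mouse and 3 to 36 with single mice left out (36 without PBS 2, 29 without PBS 3). Retnla was called in all 21 settings, Ier2 in 18 and H2-M2 in 16.

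Against 18 interaction genes, 0 were called by DESeq2, 9 with members with lymphocyte UMIs left out, 5 with the thinned score, 4 without Pmp22, 6 with the top 10% and 1 to 10 with single mice left out. In the reversed cases, the thinned score gave 0.478 for Hist1h2ap, 0.364 for Hist1h2ao, 0.314 for Hist1h2ai, 0.610 for Stmn1 and -0.0268 for Mmp12, and the top 4% gave -0.466 for Mt2. Over single mice left out, values ran from -2.72 to 0.0774 for Hist1h2ap and -2.81 to 1.16 for Hist1h2ai (the highest without PBS 2), from -0.530 (without DEP 13) to 4.37 for Spp1 and from -0.566 (without DEP 11) to 3.25 for Mt2. The causes were not tested.

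Against 19 genes at least 2 fold higher, 12 were found with the top 10%, 6 with the thinned score and 29 with 1 CPM added (19 to 23 with single mice left out). Against 2 lower ones, 0 were found with the top 10%, the thinned score, without Pmp22 and with the top 6% of each mouse, 1 with the top 4%, at least 2000 UMIs, lymphocyte UMIs left out, 2 or more score genes and fibroblast UMIs left out, and 4 with 1 CPM added (2 to 6 with single mice left out, 6 without DEP 13).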
